A study of Mus musculus with 13 samples.

Results

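The genes described here are 10 genes of tendon and cartilage, *Tnmd*, *Scx*, *Mkx*, *Fmod*, *Comp*, *Chad*, *Ucma*, *Kera*, *Acan* and *Prg4*, and they were chosen by name after their levels in these libraries were known. The expression of *Acan* was not analysed here. The other 9 were among the 17924 genes of the tables, and all 9 were among the 17069 genes tested, those that reached a normalized count of 10 in 3 or more libraries. Because the choice was made with the values in view, differences of these 9 genes between muscles are given as a description, and counts of calls among them stand only beside the share of all genes called.

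RNA was sequenced from the extensor digitorum longus (EDL), the psoas and the soleus of *mdm* mice, with 5, 5 and 3 libraries. EDL and soleus are muscles of the lower leg, and the psoas is a muscle of the lower back and hip. All libraries carry the genotype label *mdm*, a rearrangement in the titin gene *Ttn* that shortens the N2A-PEVK region of the protein, in a B6C3Fe a/a-Ttn mdm/J colony, and the labels give neither the number of mutant alleles nor a treatment. Mice were 38 to 42 days old for EDL, 29 to 42 days for psoas and 33 to 38 days for soleus. The muscles came from mice euthanized for other studies, ages and label codes were not balanced between muscles, and wild-type muscles were not analysed here. The RNA integrity number that the study lists was no higher in any *mdm* psoas library than in the lowest *mdm* EDL library. The part of RNA integrity in the differences between these muscles was not tested. Total counts ran from 9114176 to 48835209 reads per library. The 6 muscle fibre genes that were listed summed to a normalized count of at least 755854 in every EDL library, 452530 in every psoas library and 564990 in every soleus library. None of them was at 0.

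Tendons join muscle to bone and are built by tenocytes, fibroblasts that lay down parallel fibrils of type I collagen. Scleraxis (*Scx*) and Mohawk (*Mkx*) are transcription factors that set up and maintain this cell type, and tenomodulin (*Tnmd*) is its membrane protein marker. Small leucine-rich repeat proteins such as fibromodulin (*Fmod*) and keratocan (*Kera*) sit on the collagen fibrils and control their width, while chondroadherin (*Chad*), cartilage oligomeric matrix protein (*Comp*), aggrecan (*Acan*) and the protein of *Ucma* belong to the matrix of cartilage or of tendon under compression. *Prg4* encodes lubricin, the lubricant of joint and tendon surfaces. In a library from a whole muscle, fewer cells of such a type and less RNA per cell cannot be told apart.

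Promoter sequence was read for 6 of the 10 genes, in RefSeq's GRCm38.p6. The stretches below show the bases just before the start site for 4 of the 5 genes whose window could be printed without annotated transcript, leaving out *Acan*. For *Tnmd*, *Fmod* and *Ucma* the EDL and psoas libraries did not overlap. For *Chad* they did, although its mean in EDL was 3.67-fold that in psoas. They lie on the forward strand at chrX:133850758-133850979, chr1:134037004-134037253, chr11:94564797-94565046 and chr2:4975872-4976121, and capitals mark the E-box CANNTG, the kind of site that scleraxis and other basic helix-loop-helix factors bind.
Tnmd: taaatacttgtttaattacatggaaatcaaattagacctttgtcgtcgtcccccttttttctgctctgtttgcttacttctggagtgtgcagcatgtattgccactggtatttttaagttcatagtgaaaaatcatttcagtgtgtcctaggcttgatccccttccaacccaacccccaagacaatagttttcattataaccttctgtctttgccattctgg
Fmod: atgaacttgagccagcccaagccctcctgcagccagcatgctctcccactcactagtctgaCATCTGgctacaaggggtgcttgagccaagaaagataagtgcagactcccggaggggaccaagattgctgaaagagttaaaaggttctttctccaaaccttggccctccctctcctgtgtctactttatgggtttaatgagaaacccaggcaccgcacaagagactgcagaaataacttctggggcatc
Chad: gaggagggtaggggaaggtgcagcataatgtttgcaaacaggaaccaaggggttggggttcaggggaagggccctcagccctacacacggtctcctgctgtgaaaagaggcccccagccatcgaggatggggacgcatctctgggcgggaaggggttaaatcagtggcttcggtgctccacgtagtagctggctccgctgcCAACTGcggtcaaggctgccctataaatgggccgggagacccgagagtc
Ucma: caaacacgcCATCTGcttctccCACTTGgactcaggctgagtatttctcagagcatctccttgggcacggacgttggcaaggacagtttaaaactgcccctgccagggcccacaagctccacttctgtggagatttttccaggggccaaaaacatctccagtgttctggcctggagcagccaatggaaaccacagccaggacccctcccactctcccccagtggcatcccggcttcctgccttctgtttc
An E-box, which reads the same way on both strands, was found 2 times in the 250 bases before the RefSeq start of *Ucma*, 1 time each for *Fmod*, *Chad* and *Acan*, and 0 times for *Tnmd* and *Kera*. The window of *Kera* (chr10:97606955-97607204) lies inside the gene span given below. That of *Tnmd* runs to chrX:133851007, past the gene start given below, and only its first 222 bases are printed. Over all 32851 promoter windows of this length, 66.2% held at least 1. The narrower form CAGATG, read on both strands and therefore a subset of the E-boxes, was found before *Fmod* and *Ucma*, as CATCTG, and in 14.4% of all windows. AACAAT, the core of SOX sites, read on both strands, was found only in the window of *Kera* among the 6, 2 times, and in 9.42% of all windows. These are matches of letters only.

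The levels of the 9 genes are given as normalized counts, read counts divided by the size factor of the library. In *mdm* EDL all 9 had a mean above that in *mdm* psoas, by between 1.41-fold for *Scx* and 27.4-fold for *Ucma*. The mean in *mdm* soleus lay between those of EDL and psoas for *Tnmd*, *Scx*, *Mkx*, *Fmod*, *Kera*, *Comp* and *Chad*, and was the lowest of the 3 for *Prg4*.

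**Figure D1:**
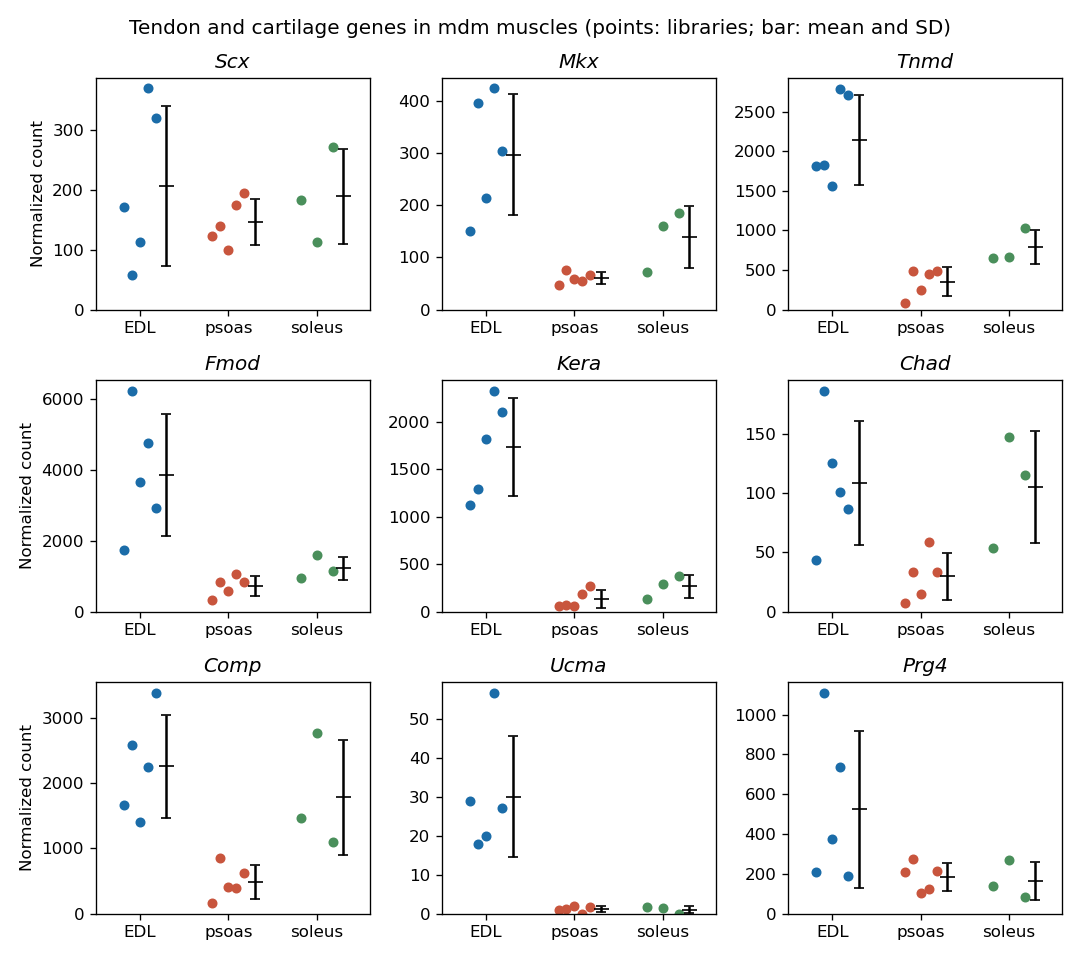
Normalized counts of the 9 genes in each *mdm* library, 1 panel per gene on a linear axis from 0. Points are libraries and the black bars the mean with its SD (EDL n = 5, psoas n = 5, soleus n = 3); *Tnmd*, *Mkx*, *Fmod*, *Kera*, *Comp* and *Ucma* show no overlap between EDL and psoas, while *Scx*, *Chad* and *Prg4* do.

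*Scx* (ENSMUSG00000034161, chr15:76457452-76459458), 1 of the pair of transcription factors, had normalized counts of 172, 57.4, 113, 371 and 321 in EDL replicates 1 to 5, 123, 140.4, 98.9, 175 and 195 in psoas, and 184, 113 and 272 in soleus. EDL spanned the whole range of the other muscles, with replicate 2 the lowest of all 13 libraries and replicates 4 and 5 the highest. The fitted log2 fold change of psoas over EDL was −0.49 (SE 0.41) and that of soleus over EDL −0.12 (SE 0.48), and the libraries overlapped in each comparison. Along the genome *Scx* lies across from *Bop1*, a gene of ribosome formation on the opposite strand, and since the strand setting of the counting is not given in the sources used here, reads of the pair may not be fully separated. The mean normalized count of *Bop1* was 242 in EDL, 350.4 in psoas and 291 in soleus.

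*Mkx* (ENSMUSG00000061013, chromosome 18), the other transcription factor, had 149, 395, 213, 424 and 303 in EDL, 47.0, 75.8, 57.7, 54.7 and 65.5 in psoas, and 71.2, 159 and 184 in soleus. All EDL libraries were above all psoas libraries, and 2 of 3 soleus libraries reached into the EDL range. Its mean in EDL was 4.93-fold that in psoas, with a log2 fold change of psoas over EDL of −2.30 (SE 0.32), and that of soleus over EDL was −1.11 (SE 0.37). So the pair of factors differed in pattern, *Scx* overlapping across the muscles and *Mkx* not overlapping between EDL and psoas. The difference between the 2 genes was not tested. Along the genome *Mkx* shares bases with *AC148004.2*, a gene on the same strand that was not analysed here, and reads of the 2 may not be fully separated.

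*Tnmd* (ENSMUSG00000031250, chrX:133850980-133865577), the tenocyte membrane protein, had normalized counts of 1808, 1820.2, 1559, 2783 and 2709 in EDL. In psoas it had 79.2, 489, 249, 451 and 487, and in soleus 655, 668 and 1032. The 3 muscles did not overlap, with every soleus library above every psoas library and below every EDL library. EDL had a mean of 2136 ± 567 (SD, n = 5) against 351 ± 181 (SD, n = 5) in psoas and 785 ± 214 (SD, n = 3) in soleus, and the log2 fold changes over EDL were −2.61 (SE 0.40) for psoas and −1.44 (SE 0.46) for soleus. *Tnmd* in psoas replicate 1, the mouse of 29 days, was the lowest of all libraries.

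Among the leucine-rich repeat proteins, *Kera* (ENSMUSG00000019932, chr10:97606879-97613692) had normalized counts of 1123, 1292, 1822, 2319.8 and 2103 in EDL, 55.4, 73.7, 62.3, 189 and 268 in psoas, and 132, 294 and 371 in soleus. No library of psoas or soleus came near the lowest EDL library, while the psoas and soleus ranges overlapped. The mean in EDL was 13.4-fold that in psoas and 6.52-fold that in soleus, and the fitted log2 fold changes over EDL were −3.74 (SE 0.47) and −2.70 (SE 0.55).

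*Fmod* (ENSMUSG00000041559, chr1:134037254-134048277) had 1730.0, 6225, 3655, 4744 and 2931 in EDL, 316, 845, 567, 1057 and 833 in psoas, and 954, 1586 and 1138 in soleus. Every EDL library was above every other library, although EDL replicate 1 and soleus replicate 2 lay close. The log2 fold changes over EDL were −2.42 (SE 0.37) in psoas and −1.65 (SE 0.43) in soleus.

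*Chad* (ENSMUSG00000039084, chr11:94565047-94569127) had 43.4, 186, 125, 101 and 86.6 in EDL, 7.45, 33.6, 14.7, 59.1 and 33.2 in psoas, and 53.8, 147 and 115 in soleus. EDL and soleus covered much the same range, and psoas overlapped EDL through 1 high psoas library and 1 low EDL library. Its log2 fold change was −1.89 (SE 0.51) for psoas over EDL and −0.05 (SE 0.56) for soleus over EDL. *Chad* overlaps *Acsf2* on the opposite strand, whose mean normalized count was 12.8 in EDL, 45.6 in psoas and 61.0 in soleus.

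*Comp* (ENSMUSG00000031849, chr8:70373558-70382066), a pentameric glycoprotein that binds collagen, had normalized counts of 1662, 2577, 1396, 2245 and 3377 in EDL, 165, 849, 401, 384 and 621 in psoas, and 1459, 2767 and 1102 in soleus. Psoas lay below both other muscles in every library, and soleus overlapped EDL. The log2 fold change was −2.22 (SE 0.40) for psoas over EDL, −0.33 (SE 0.45) for soleus over EDL and 1.89 (SE 0.44) for soleus over psoas. With *Scx*, *Comp* and *Chad* had the smallest estimated differences between soleus and EDL among the 9 genes, and they had the highest estimates of soleus over psoas.

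*Ucma* (ENSMUSG00000026668, chr2:4976122-4985748), which encodes a secreted protein of the upper zone of growth cartilage, was measured at few reads. Normalized counts were 29.0, 17.9, 19.9, 56.6 and 27.1 in EDL, 0.932, 1.07, 1.83, 0 and 1.66 in psoas, and 1.66, 1.43 and 0 in soleus. In reads, EDL held 178 in its 5 libraries, psoas 8 in 5 and soleus 6 in 3, and *Ucma* passed the limit for testing through EDL alone. After scaling to the libraries the rate in EDL was 27.4-fold that in psoas (95% exact interval 13.6 to 64.3, counting error only) and 21.5-fold that in soleus (9.67 to 59.3). Levels in psoas and soleus cannot be ordered at this depth.

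*Prg4* (ENSMUSG00000006014, chr1:150449412-150466165) had 207, 1110.1, 376, 738 and 191 in EDL, 206, 274, 102, 125 and 215 in psoas, and 138, 269 and 84.2 in soleus. The high mean of EDL came from replicates 2 and 4, and replicates 1 and 5 were within the psoas range. The log2 fold changes over EDL were −1.51 (SE 0.48) for psoas and −1.67 (SE 0.59) for soleus. *Prg4* overlaps *Tpr* on the opposite strand, which had a mean between 3425 and 3555 in each muscle.

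**Figure D2:**
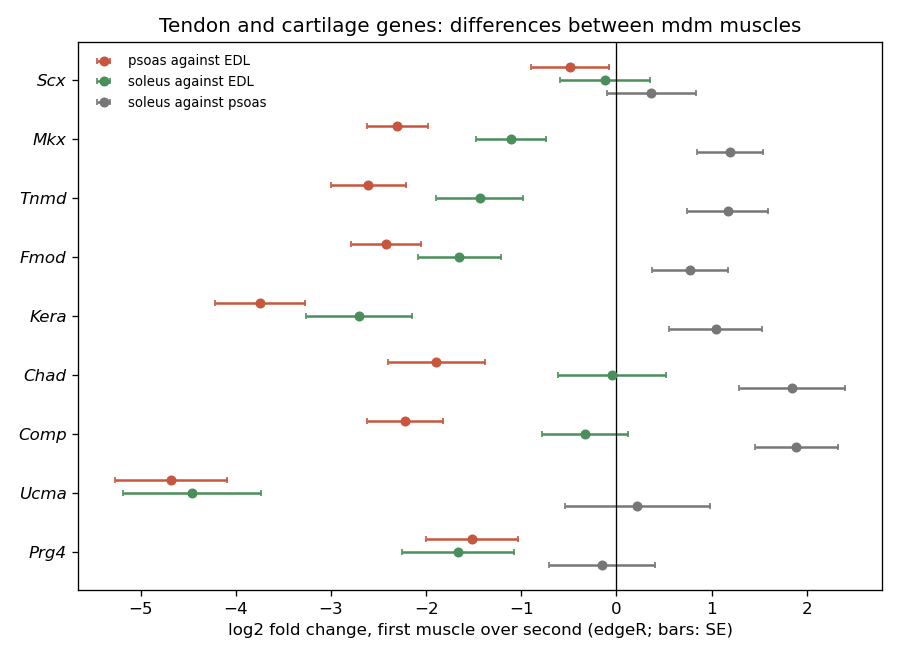
Log2 fold changes of the 9 genes between *mdm* muscles from the edgeR fit of all 13 libraries, on a log2 axis with 0 as no difference. Points are estimates and bars SE; all 9 estimates of psoas over EDL are below 0, from −0.49 (*Scx*) to −4.68 (*Ucma*), and 8 of 9 estimates of soleus over psoas are above 0.

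A gene was called when its adjusted p was below 0.01 and its log2 fold change beyond 1 in either direction. By this limit 6 of the 9 genes were lower in psoas than in EDL (*Tnmd*, *Mkx*, *Fmod*, *Comp*, *Ucma* and *Kera*), beside 2.50% of all genes tested, and none was higher, beside 2.43%. The same 6 did not overlap between the muscles, beside 6.56% of all genes tested that lay below EDL in every psoas library. The median log2 fold change was −2.30 over the 9 genes and 0.02 over all genes tested. For soleus against EDL, 1 gene was called lower (*Ucma*), beside 0.445% of all genes, none was called higher, beside 0.533%, and 4 did not overlap (*Tnmd*, *Fmod*, *Ucma* and *Kera*), beside 5.72%. Its median log2 fold change was −1.44, against −0.03 over all genes. For soleus against psoas, edgeR called 0 of 9, beside 0.0762% of all genes in either direction. An unadjusted edgeR p under 0.05 was found for 4 (*Tnmd*, *Mkx*, *Comp* and *Chad*), beside 2163 of all 17069 genes. DESeq2 called 1 (*Comp*), beside 95 genes called higher and 76 lower of all 17069. *Tnmd* and *Comp* did not overlap, beside 4.97% of all genes that lay above psoas in every soleus library. The comparisons share libraries, and the choice of genes used the values counted here, so nothing is read from these counts. *Ucma*, which was tested through its EDL values alone, had to differ between EDL and the other muscles, and without it the calls were 5 of 8 for psoas against EDL and 0 of 8 for soleus against EDL.

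The labels also carry a code for each library that they do not explain, and 3 codes hold both EDL and psoas. Within code T4, with 1 library each, 8 of the 9 genes were lower in psoas and *Scx* was higher. Within T5, with 1 library each, and within T6, with 2 each, all 9 were lower. In soleus against EDL, 8 of 9 were lower within T4 (*Scx* higher) and 8 of 9 within T6 (*Chad* higher). The libraries of EDL and psoas were also paired by number, although the labels do not say whether a pair came from 1 mouse. Values were lower in psoas in 5 of 5 pairs for *Tnmd*, *Mkx*, *Fmod*, *Comp*, *Chad*, *Ucma* and *Kera*, in 4 of 5 for *Scx* and in 3 of 5 for *Prg4*. The widest pair difference in *Tnmd* was −4.47 on the log2 scale and the narrowest −1.92.

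The genes were ordered within each muscle by normalized count per kb of exon, which is the scale on which genes can be compared. In EDL the order of the means was *Tnmd* (1579 per kb), *Fmod* (1167), *Kera* (759.6), *Comp* (759), *Prg4* (123), *Scx* (103), *Mkx* (72.5), *Chad* (64.6) and *Ucma* (34.0). Only the step from *Comp* to *Prg4* had no overlap between libraries, so the first 4 and the last 5 separated while neighbours within each group did not. In psoas, *Tnmd* (259 per kb), *Fmod* (219) and *Comp* (163) stood first, all neighbours overlapped down to *Mkx* (14.7), and *Ucma* (1.24) lay below. *Kera* lay above *Scx* in every EDL library, while in psoas its mean was 56.9 per kb against 73.0 for *Scx* and their libraries overlapped. In soleus *Comp* (599 per kb) and *Tnmd* (580.1) led without separating, *Fmod* (371) lay below *Tnmd* in every library but overlapped *Comp*, *Kera* (117) lay below *Fmod* without overlap, and the rest down to *Mkx* (33.7) overlapped their neighbours.

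The genes also varied among libraries of 1 muscle. The within-muscle SD of log2 CPM (counts scaled to the TMM library size, with a prior count of 2) ran from 0.54 for *Mkx* to 0.91 for *Chad*, which placed the 9 genes between the percentiles 62.1 and 87.8 of all genes tested. *Tnmd* varied more in psoas (SD 1.12) than in EDL (0.37), and *Scx* more in EDL (1.08) than in psoas (0.38), with no test of either difference. After the mean of each muscle was taken out, the deviations of 26 of the 36 pairs of genes correlated above 0 over the 13 libraries, with a median Pearson r of 0.41 and a median Spearman rho of 0.47. *Fmod* and *Chad* went together most closely (r = 0.94), between 0.90 and 0.96 when any 1 library was left out.

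*Tnmd* correlated with *Comp* at 0.69, with *Chad* at 0.65, with *Kera* at 0.64 and with *Fmod* at 0.61. Without psoas replicate 1, which was low in all of them, r fell to 0.31 with *Comp*, 0.35 with *Chad* and 0.26 with *Fmod*, so these 3 values rest on that library. *Scx* had a median r of 0.05 with the other 8 genes, and its lowest, −0.44, was with *Prg4*. That value rests on single libraries, at −0.07 without EDL replicate 2 and −0.73 without EDL replicate 4. *Ucma*, at or near 0 in psoas and soleus, had a median r of −0.02 in sparse counts. All correlations share the libraries, their depth and the muscles, and are descriptions with n = 13.

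**Figure D3:**
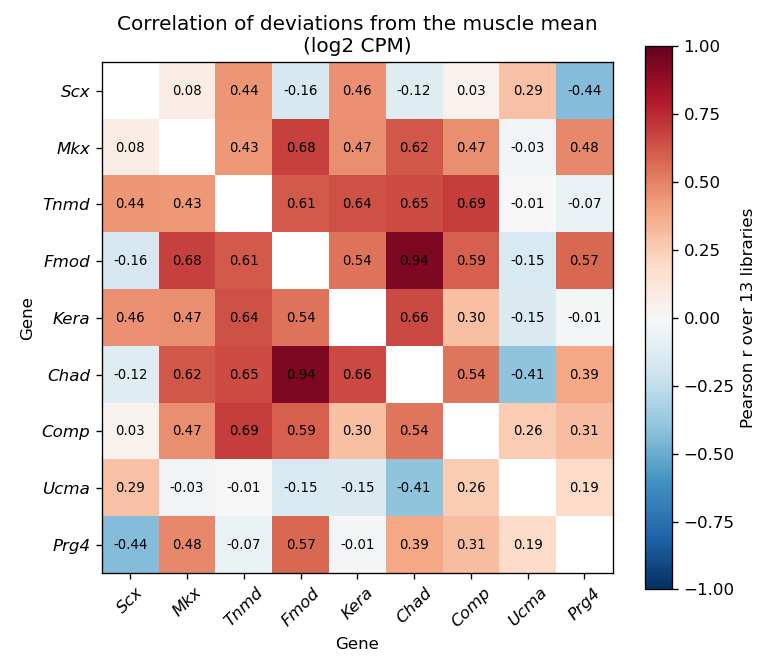
Pearson r between deviations of log2 CPM from the mean of the muscle, for each pair of the 9 genes over 13 *mdm* libraries, on a colour scale from −1 (blue) to 1 (red). *Fmod* and *Chad* reach 0.94, *Scx* with *Prg4* is lowest at −0.44, and the row of *Ucma* stays between −0.41 and 0.29.

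Among 11957 candidate genes with a mean normalized count of at least 50, those most like the mean pattern of the 9 genes (standardized log2 CPM, Pearson r over 13 libraries) were *Cpxm2* (0.97), a carboxypeptidase-like protein, *Col11a1* (0.96), a chain of type XI collagen, *1500015O10Rik* (0.96), and *Wif1* (0.94), a secreted inhibitor of Wnt signalling. The others in the first 10 were *Calm3*, *Wfdc1*, *Cilp2*, *Tpgs2*, *Rom1* and *Gm43672*, with r from 0.91 to 0.93. *Cpxm2* had mean normalized counts of 1822 in EDL, 334 in psoas and 907 in soleus, and its r within muscles was 0.88. *Wif1* was at 331, 32.2 and 41.6, and it was the gene most like *Kera* (r = 0.99, and 0.94 within muscles). *Cilp2* was the gene most like *Tnmd* (0.96), *1500015O10Rik* most like *Mkx* (0.93), *Wfdc1* most like *Fmod* (0.94) and *Cpxm2* most like *Comp* (0.95). The closest to *Scx* were *Rps19-ps1* and *Rps19-ps2* (both 0.91), pseudogenes of a ribosomal protein whose reads cannot be separated with certainty from those of their copies, and *Ska2* (0.91). For *Chad* the closest was *1700019D03Rik* (0.90), for *Ucma* *St6galnac6* (0.93, and 0.14 within muscles) and for *Prg4* the pseudogene *Gm3200* (0.82). The r over all libraries holds the differences between muscles, and the r within muscles does not.

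The rest of the tendon and cartilage programme was read from 3 lists of 56 further genes, of which 49 were tested. The lists were chosen with earlier results of these data known. Against EDL, psoas had 6 of these 49 called lower and 0 higher, beside 4.93% of all genes called in either direction. An unadjusted edgeR p under 0.05 was found for 25 of the 49, beside 5679 of all 17069 genes. Of these 25, 13 had a higher estimate in psoas, so the differences did not all go 1 way. Among 20 tendon matrix genes and transcription factors 1 fell (*Cilp2*), among 10 signals that act on tendon cells 1 fell (*Mstn*), and among 19 cartilage genes 4 fell (*Col11a1*, *Col11a2*, *Matn3* and *Epyc*). The median log2 fold change was 0.08 for the tendon list, 0.58 for the signals and −0.40 for the cartilage list, against 0.02 over all genes tested. With the libraries of EDL and psoas paired by number, 14 of the 49 were called, beside 7.42% of all genes in that fit, and DESeq2 also called 14, beside 9.29%.

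*Cilp2*, a matrix protein of the cartilage intermediate layer family, had normalized counts of 958, 1200.0, 424, 1317 and 2034 in EDL, 31.2, 138, 121, 228 and 204 in psoas, and 362, 611 and 641 in soleus. EDL and psoas did not overlap, and the log2 fold change of psoas over EDL was −3.04 (SE 0.48, edgeR adjusted p = 0.0018, n = 5 and 5). *Col11a1*, whose product caps the width of collagen fibrils, had 728, 1095, 516, 1575 and 1389 in EDL and 124, 301, 206, 358 and 356 in psoas, with no overlap and a log2 fold change of −1.98 (SE 0.35, edgeR adjusted p = 0.0030). *Col11a2*, its partner chain, fell as well (−3.00, SE 0.56, edgeR adjusted p = 0.0040), with 1 psoas library just above the lowest EDL library, and this call was lost without psoas replicate 2 (adjusted p = 0.0122).

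The remaining 3 calls lay close to the limit. *Epyc*, a small leucine-rich repeat protein of growth cartilage, ran from 34.5 to 83.9 in EDL and from 0.916 to 19.2 in psoas (log2 fold change −2.57, SE 0.56, edgeR adjusted p = 0.0083). *Matn3*, a matrilin of the cartilage matrix, ran from 11.5 to 113 in EDL and from 4.66 to 12.2 in psoas (−2.54, SE 0.58, edgeR adjusted p = 0.0097). *Mstn*, which encodes myostatin, made chiefly by muscle fibres, ran from 48.7 to 1210.4 in EDL and from 9.08 to 55.5 in psoas (−4.21, SE 0.95, edgeR adjusted p = 0.0096). Leaving out 1 library ended the call of *Epyc* and of *Matn3* in 11 of 13 fits each and that of *Mstn* in 9 of 13, with adjusted p up to 0.0223, 0.0252 and 0.0292. Pairing EDL and psoas by number ended the call of *Mstn* too (edgeR adjusted p = 0.0306), as did label codes as blocks (edgeR adjusted p = 0.0399).

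Of the 20 genes of the tendon list edgeR called only *Cilp2* between psoas and EDL, while DESeq2 called 4, beside 9.29% of all genes. Estimates beyond 1 that edgeR did not call were *Angptl7* −3.00 (SE 0.81), *Tnc* −1.33 (SE 0.40), *Bgn* 1.19 (SE 0.35), *Col5a1* 1.11 (SE 0.38), *Egr1* 1.29 (SE 0.53) and *Egr2* 1.30 (SE 0.49). Their edgeR adjusted p ran from 0.0205 (*Angptl7*) to 0.101 (*Egr1*). Other estimates of this list were smaller. *Col1a1* had a log2 fold change of −0.92 (SE 0.61) for psoas over EDL, *Col3a1* 0.80 (SE 0.45), *Dcn*, the proteoglycan decorin, −0.32 (SE 0.21), *Lum*, its relative lumican, 0.41 (SE 0.30) and *Thbs4*, a thrombospondin of tendon, 0.11 (SE 0.23). *Col2a1*, the main collagen of cartilage, had −2.95 (SE 0.70) with an edgeR adjusted p of 0.0114, and *Sox9*, the transcription factor of chondrocytes, 1.59 (SE 0.42) with an adjusted p of 0.0193. *Tgfb3*, a growth factor that induces tendon genes, was above EDL in all 5 psoas libraries with an edgeR adjusted p of 0.0043. Its log2 fold change of 0.98 (SE 0.19) was under the limit of 1. *Sox9*, *Tgfb1* and *Runx2* were also above EDL in all 5 psoas libraries and were not called. The estimate was 1.52 for *Tgfb1* (SE 0.35, edgeR adjusted p = 0.0104) and 1.67 for *Runx2* (SE 0.45, edgeR adjusted p = 0.0200).

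**Figure D4:**
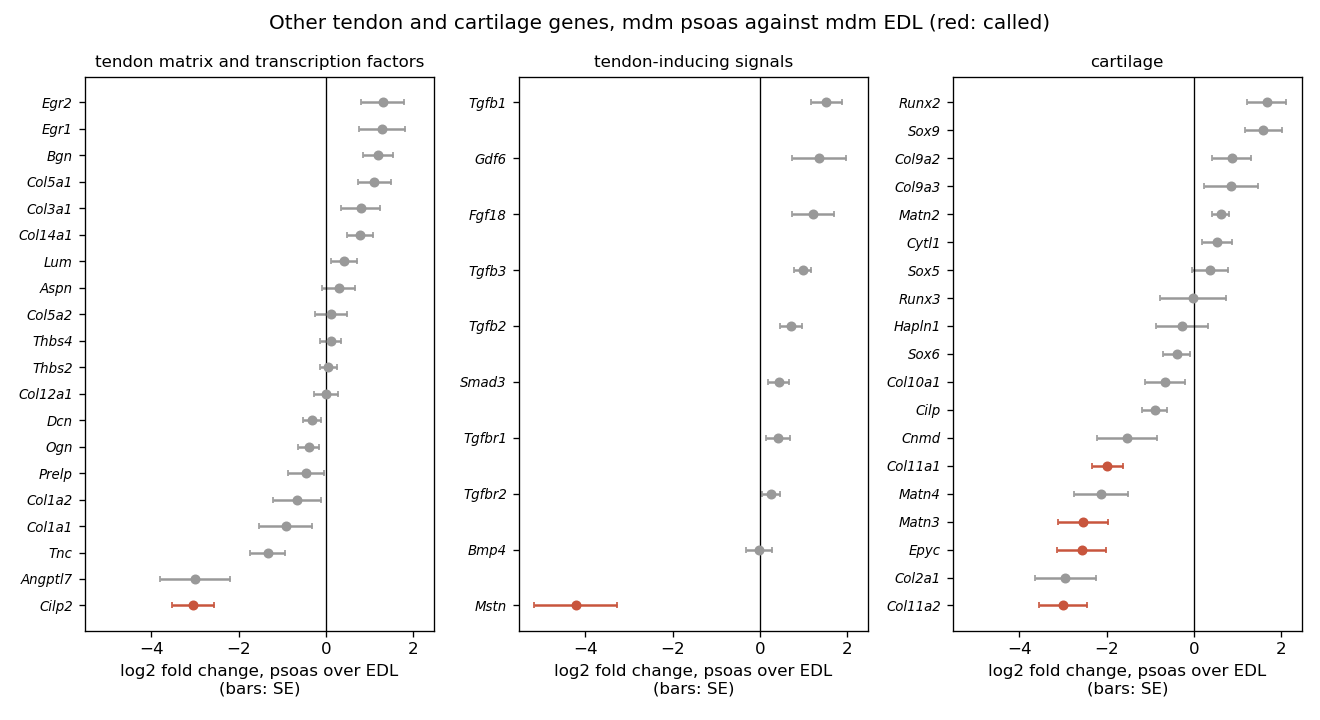
Log2 fold change of psoas over EDL for the 49 other genes tested, in panels for tendon matrix and transcription factors, signals and cartilage, on a shared log2 axis. Points are edgeR estimates, bars SE, and red marks the 6 genes called (*Cilp2*, *Mstn*, *Col11a1*, *Col11a2*, *Matn3*, *Epyc*), all below 0.

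Against EDL, soleus had 1 of the 49 genes called lower and none higher, beside 0.978% of all genes called in either direction. This was *Cilp*, a cartilage intermediate layer protein, with normalized counts of 26961, 31968, 25966, 24593 and 49100.3 in EDL, 11861, 16233, 22457, 20126 and 14807 in psoas and 6011, 10791 and 4919 in soleus. The muscles did not overlap, and its log2 fold change was −2.12 (SE 0.36, edgeR adjusted p = 0.0066), a call that was lost in 6 of 13 fits without 1 library (adjusted p up to 0.0453), with label codes as blocks (0.0171), with the replicate block (0.0163) and with the 2 muscles alone. *Cilp* was thus lowest in soleus, unlike *Cilp2*, which was lowest in psoas. Between soleus and psoas, edgeR and DESeq2 each called 0 of the 49, and 17 had an unadjusted edgeR p under 0.05, beside 2163 of all 17069 genes.

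Genes of other tissues were read from further lists. These lists were also chosen with earlier results of these data known, so calls among them are given as a description. Connective tissue fibroblast genes had 0 of 8 called between psoas and EDL by edgeR and by DESeq2. Of these 8, 3 had an unadjusted edgeR p under 0.05, beside 5679 of all 17069 genes. Their summed normalized counts were 28312 to 47236 in EDL, 25891 to 41092 in psoas and 40059 to 62880.2 in soleus. Genes of the mesothelium, the lining of body cavities, had 6 of 6 called higher in psoas than in EDL (*Upk3b*, *Upk1b*, *Msln*, *Wt1*, *Lrrn4* and *Bnc1*), beside 2.43% of all genes, and 1 of 6 higher in soleus than in EDL (*Lrrn4*), beside 0.533%. They summed to 28.4 to 100.1 in EDL, 208 to 1108 in psoas and 42.1 to 129 in soleus, and *Bnc1* was at 0 in every EDL library. Of the junction of muscle and tendon, 1 of 4 genes was called lower in psoas, beside 2.50% of all genes. This was *Col22a1*, a collagen of that junction, which had a log2 fold change of −1.55 for psoas over EDL (SE 0.30, edgeR adjusted p = 0.0043). Adipocyte genes had 0 of 6 called between psoas and EDL by edgeR and by DESeq2, with 2 at an unadjusted edgeR p under 0.05, beside 5679 of all 17069 genes. In soleus 2 of 6 were called higher than in EDL (*Adipoq* and *Cfd*), beside 0.533% of all genes. There DESeq2 called 5 of 6, beside 3.71% of all genes in either direction, and 5 had an unadjusted edgeR p under 0.05, beside 2584 of all 17069. Their sums were 9146 to 27996 in EDL, 14320.3 to 37122 in psoas and 53980 to 83251 in soleus. Of 9 bone genes 3 were tested and none was called in any comparison by edgeR or DESeq2. In each comparison with soleus 1 had an unadjusted edgeR p under 0.05 (*Phex*), beside 2584 of all 17069 genes against EDL and 2163 against psoas. Among 6 muscle fibre genes, edgeR called *Ckm*, muscle creatine kinase, lower in psoas than in EDL and *Tnnc2*, fast troponin C, lower in soleus than in EDL. This was 1 of 6 in each comparison, beside 2.50% and 0.445% of all genes. Without a call, *Ckm* was also below EDL in every soleus library (−1.87, SE 0.37, edgeR adjusted p = 0.0123). So was *Tnnc2* in every psoas library (−1.75, SE 0.46, edgeR adjusted p = 0.0195). DESeq2 called 3 of the 6 in each comparison, beside 9.29% and 3.71% of all genes in either direction. The part of these other tissues in the levels above was not tested.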

How the data were processed

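RNA of 13 *mdm* muscles was sequenced by the authors with a stranded total RNA kit. Per the labels and the methods, only libraries with low base quality were trimmed (Trimmomatic 0.32 in the submitters' processing notes), and the others were used without filtering. Reads were aligned to GRCm38 with TopHat2 (2.1.1) and counted on genes with GenomicAlignments. The overlap mode and strand setting are not given in the sources used here. The authors deposited whole-number read counts for 17924 genes and a normalized signal, the count divided by the library's DESeq2 size factor (0.502 to 2.42). Entries without a gene name numbered 0. Total counts of 9114176 to 48835209 limit the precision of low genes, and intervals cover counting error only.

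GENCODE M21 (GRCm38) gave symbols for 17833 genes and exon lengths, and RefSeq GRCm38.p6 the promoters. Counts were fitted with edgeR 4.0.16 (R 4.3.3, limma 3.58.1; TMM, quasi-likelihood test, all 13 libraries, muscle as the only factor), with Benjamini-Hochberg adjustment over the 17069 genes that reached a normalized count of 10 in 3 or more libraries. A call needs an adjusted p below 0.01 and a log2 fold change beyond 1 in either direction. Each SE is the estimate over the root of its F value. The study also fitted the sequencing run, which the labels do not name. The methods call the libraries biological replicates and name fewer mice than muscles sampled in the study as a whole, so some mice gave more than 1 muscle, and the labels do not say which. Alternatives were DESeq2 1.42.0, the deposited size factors, no filter, only the muscles compared, the label code or replicate number as a block, each library left out, and, for correlations, log2 of the normalized count plus 1. Other steps used Python 3.11.15, numpy 2.4.6, pandas 2.3.3, scipy 1.17.1 and matplotlib 3.10.9.

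The genes and lists were chosen with earlier results of these data known. Genes named beyond the 9 were those called in 3 lists (at most 8 per direction by adjusted p), the 10 most like the mean pattern and up to 3 per gene, and called genes of other tissues. *Col1a1*, *Col3a1*, *Dcn*, *Lum*, *Thbs4*, *Angptl7*, *Tnc*, *Bgn*, *Col5a1*, *Egr1*, *Egr2*, *Col2a1*, *Sox9*, *Tgfb1*, *Tgfb3*, *Runx2*, *Phex* and overlapping genes were named after their values were seen. Deviations of same-numbered EDL and psoas libraries from their muscle means correlated at 0.41, 0.37, 0.32, 0.29 and 0.37, all above 0.1, and these numbers were taken as pairs. The check cannot show that a pair came from 1 mouse. The ages of pair 1 differ (38 and 29 days), the other pairs each share a label code, and libraries of different number were not compared. Soleus numbers gave −0.30 to 0.42 and were not taken as pairs. The replicate block for comparisons with soleus still joined soleus libraries to the others by number, as an alternative fit only. On simulated data for psoas against EDL (17069 genes), edgeR recovered 84 of 100 genes changed 4-fold and 98 of 100 changed 8-fold, with 1 false call. DESeq2 recovered 96 and 98, with 14 false calls. The changed genes were drawn from those with a mean normalized count above 50, and no effect of pair or label code was simulated. The recovery therefore does not cover genes as low as *Ucma*, *Epyc* and *Matn3*.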

Additional observations from a re-analysis of the deposited data

Results flagged for a closer look

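*Ucma* in EDL replicate 4 had a normalized count of 56.6, and the nearest other EDL library had 29.0. The gap was 0.714 of the range of the 5 libraries, just above the limit of 0.710 of Dixon's test. Of 32 groups of 4 to 10 libraries tested this way 1 was singled out, and chance does so in about 1 of 20.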

How the results depend on the processing

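For psoas against EDL, between 6 and 8 of the 9 genes were called under every alternative, with a median log2 fold change of −2.48 to −2.17 when 1 library was left out. Calls over all genes tested moved as well, from 170 higher and 147 lower without EDL replicate 3 to 812 higher and 774 lower with DESeq2. The 49 other genes gave 14 calls with DESeq2, beside 9.29% of all genes, and 14 with the replicate block, beside 7.42%. Label codes as blocks gave 11, beside 576 higher and 530 lower of all genes. When 1 library was left out they gave 3 to 5, beside 170 higher and 147 lower (without EDL replicate 3) to 353 higher and 449 lower (without EDL replicate 4). For soleus against EDL, calls among the 9 genes numbered 1 in the reported fit, 3 with DESeq2, 2 with the 2 muscles alone, 3 with label codes as blocks and 0 to 2 without 1 library, at 0 without any 1 of the 3 soleus libraries. Over all genes, 0.978% were called in the reported fit and 3.71% with DESeq2. The 2 muscles alone gave 54 higher and 68 lower, and label codes 31 higher and 55 lower. Without soleus replicate 1, 2 or 3 there were 17, 19 and 38 higher and 2, 4 and 17 lower. Calls among the 49 others numbered 6 with DESeq2, beside 3.71% of all genes, 0 with the replicate block, beside 81 higher and 45 lower, and 0 to 2 without 1 library. For soleus against psoas, DESeq2 called 1 of the 9 genes, beside 95 higher and 76 lower of all genes. The replicate block called 1 other gene (*Col11a2*), beside 10 higher and 1 lower. The cause of these shifts was not tested. No fold change of the 9 genes was reversed past its spread, but estimates near 0 changed sign, *Chad* in 4 and *Scx* in 5 of 19 alternatives for soleus against EDL, and *Prg4* and *Ucma* in 2 of 19 each for soleus against psoas. The median within-muscle correlation stayed between 0.31 and 0.43 without 1 library. The replicate block joins libraries by number only, and the labels do not name the mice. It ended the calls of *Mstn* and *Cilp*, and for psoas against EDL it called 7 of the 9 genes, beside 7.42% of all genes. *Ucma* in psoas and soleus is limited by depth.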
